A study of Rattus norvegicus with 12 samples.

Results

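Interleukins are secreted signals between white blood cells, and each acts through receptor subunits on its target cell. All genes whose symbol begins with Il followed directly by a digit were taken as 1 set, which gave 73 of the 17337 genes in the count tables of rat whole blood. They comprised 33 ligands, 34 receptor subunits, 2 decoy receptors and 4 antagonists or soluble binding proteins. The donors were male rats of the inbred strains F344, a Fischer line, and WKY (Wistar Kyoto). All rats, aged 70 to 90 days, first went through contextual fear conditioning and then stayed in the home cage for 4 weeks. The chronic restraint stress (CRS) groups were next restrained for 2 hours a day over 2 weeks, while the no stress (NS) groups were left undisturbed. Every rat was conditioned a second time and decapitated 24 hours later, so the NS groups carry both rounds of conditioning too. Each of the 4 groups, F344 NS, F344 CRS, WKY NS and WKY CRS, held 3 libraries.

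Most interleukin receptors lack enzyme activity of their own. The cytokine receptors of the interleukin-2, interleukin-6 and interleukin-10 kinds pass their signal through Janus kinases (JAK) and the transcription factors called STAT, and several share a subunit, such as the common gamma chain Il2rg or the gp130 chain Il6st. Interleukin-1 and interleukin-17 receptors instead feed into NF-kB through adaptor proteins. In blood, lymphocytes and myeloid cells carry different sets of these receptors, and most ligands are transcribed only briefly after activation.

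Few reads were available for these genes. Features that name a gene received 1691956 to 3846263 counts per library, and all but 90796 to 419789 of these fell on the 3 most abundant features. In CPM, library-size scaled counts with TMM factors, 1 count was worth 0.609 and 1.14 CPM in F344 NS replicates 2 and 3 and 0.202 to 0.436 CPM in the other libraries, so values are coarsest in those F344 libraries. Replicate 3 had the fewest counts of all libraries, while replicate 2, with 195564 counts outside the 3 most abundant features, lay within the range of the others and had a TMM factor of 0.626. Markers of blood were present: the red cell enzyme Alas2 had 22404 counts over all libraries, the leukocyte antigen Ptprc 1746 and the platelet chemokine Pf4 890. Of the neutrophil genes, S100a9 had 427 counts and S100a8 57. Nothing in the titles ties each library to its own animal, so a p-value reflects library-to-library spread, part of which may be technical. WKY and F344 reads may differ in how well they align to the reference strain's genome, which was not tested.

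Receptors, not ligands, made up most of the interleukin signal in blood. Receptor subunits held 77.0% of the 5096 counts that fell on the 73 genes, ligands 19.3%, and antagonists or binding proteins 3.18%. Il17ra, the signalling subunit shared by receptors of the interleukin-17 family, alone had 1533 counts, or 30.1%. It was followed by Il16, a T cell attractant made as a longer precursor, with 504, the interleukin-4 receptor Il4r with 454 and the interleukin-6 receptor Il6r with 421. These are counts and not levels per length, so they do not rank transcript abundance. By library, receptor subunits took 78.6% to 81.2% of the interleukin counts in F344 NS, 76.0% to 77.0% in F344 CRS, 75.3% to 77.6% in WKY NS and 73.3% to 76.9% in WKY CRS. F344 NS lay above the other groups, by 78.6% against 77.6% at the nearest. This rests on 520, 145 and 113 interleukin counts in replicates 1 to 3, of which the latter pair are the smallest of all libraries. Whether the gap exceeds counting error was not tested. Between 24 and 35 of the 73 genes had any count in a library.

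**Figure D1:**
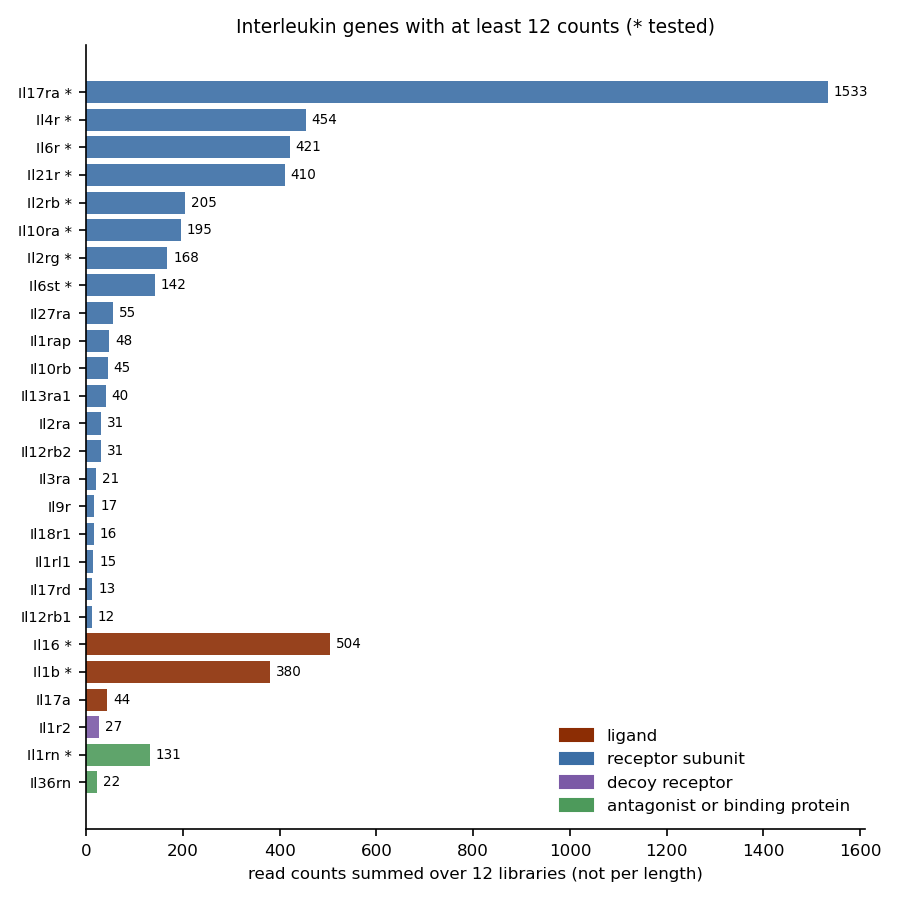
Read counts summed over the 12 libraries (x axis, linear, not per length) for the 26 interleukin genes with at least 12 counts, coloured by role, with an asterisk on the 11 that passed the low count filter. Il17ra, a receptor subunit, stands highest at 1533 counts, and the ligands with the most counts are Il16 at 504 and Il1b at 380.

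Of the 33 ligands, 8 had no count in any library and 20 had 1 to 4. The ligands without a count were Il2, Il3, Il5, Il7, Il12b, Il13, Il21 and Il36a, among them the T cell growth factor interleukin-2 and the type 2 cytokines interleukin-5 and interleukin-13. The detection limit was coarse: a gene at 0 over all 12 libraries could still have stood at up to 0.0785 CPM, counting 3 reads as the limit, and at 0.606 to 3.43 CPM in a single library. Il7r, the interleukin-7 receptor that naive T cells carry, also had 0 counts, while the T cell kinase Lck had 331 and the T cell receptor chain Cd3e 89. The table also held 0 counts for Il1rapl1, a relative of the interleukin-1 receptor. Reads that the counting left as ambiguous between features took 78.3% to 83.6% of each library, and whether they include reads of these genes was not tested. Il18, which overlaps Bco2 and Tex12 in the RefSeq annotation of assembly GRCr8, had 1 count.

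A further 15 genes had at least 12 counts but lay below the low count filter. Il27ra, a receptor for interleukin-27, had 55 counts, of which F344 NS held 7, F344 CRS 24, WKY NS 15 and WKY CRS 9. Il1rap, the accessory chain of interleukin-1 receptors, had 48 and Il10rb, the second interleukin-10 receptor chain, 45. Il17a, the founding ligand of the interleukin-17 family, had 44 counts, and 15 of them came from WKY CRS replicate 1 alone. Il1r2, a decoy that binds interleukin-1 without signalling, had 2 counts in F344 NS, 5 in F344 CRS, 10 in WKY NS and 10 in WKY CRS, with 7 of those in WKY NS replicate 3. The pooled level of Il1r2 was 0.326 and 0.390 CPM in the F344 groups and 1.00 and 1.08 CPM in the WKY groups. Fitted without the filter, Il1r2 differed by a log2 of 1.54 between strains, which did not pass (edgeR adjusted p = 0.681, the lowest of these 15 genes in the averaged strain and CRS comparisons). The others were Il13ra1 with 40 counts, Il12rb2 and Il2ra with 31 each, Il36rn with 22, Il3ra with 21, Il9r with 17, Il18r1 with 16, Il1rl1 with 15, Il17rd with 13 and Il12rb1 with 12.

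The low count filter kept 11 of the 73 genes (15.1%), close to the 16.0% of all genes, or 2781, that it kept. These 11 held 89.1% of the interleukin counts: the ligands Il1b and Il16, the antagonist Il1rn, and the receptor subunits Il17ra, Il10ra, Il4r, Il21r, Il2rb, Il2rg, Il6r and Il6st. The remaining 62 genes were not tested in the fit reported here. All 7 comparisons came from 1 edgeR quasi-likelihood fit of the 12 libraries, with Benjamini-Hochberg adjusted p-values (all 2781 genes, threshold 0.05), and they share groups with each other.

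No interleukin gene passed the threshold in any comparison. For CRS against NS, edgeR called 0 of 11 in F344, where 0.0% of all tested genes were called, 0 of 11 in WKY (0.0%) and 0 of 11 averaged over strains (0.036%). For WKY against F344 it called 0 of 11 under NS (0.683% of all genes), 0 of 11 after CRS (1.29%) and 0 of 11 averaged over treatments (3.74%). The strain difference in the response to CRS gave 0 of 11 (0.0%). DESeq2 also called 0 of the 11 in each of the 7 comparisons. At an unadjusted p under 0.05, restraint gave 0 of 11 in F344 (4.67% of all genes), 0 in WKY (5.79%) and 1 averaged (7.08%). The strain comparison gave 1 of 11 under NS (9.31%), 2 after CRS (11%) and 3 averaged (14.7%), and the difference in response gave 0 (3.81%). Averaged over treatments, 6 of the 11 had positive WKY minus F344 values with a median log2 of 0.27, against -0.01 over all tested genes. Averaged over strains, 7 of 11 had positive CRS minus NS values with a median log2 of 0.07, against 0.00 over all genes.

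**Figure D2:**
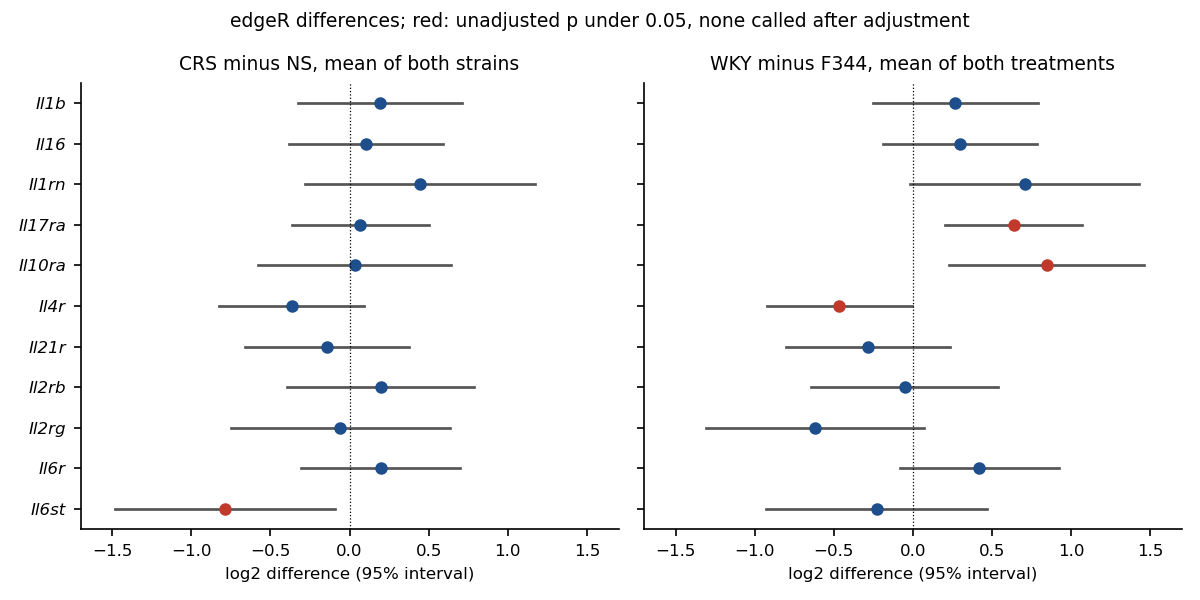
log2 differences of the 11 tested interleukin genes from edgeR with 95% intervals (x axis), for CRS minus NS averaged over strains on the left and WKY minus F344 averaged over treatments on the right. Red points had an unadjusted p under 0.05: Il6st on the left at -0.79, and Il17ra at 0.64, Il10ra at 0.85 and Il4r at -0.46 on the right, none of which passed after adjustment.

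Il17ra, which transmits interleukin-17 signals to NF-kB, had the smallest p between strains, averaged and under NS, while after CRS that of Il4r was smaller. It stood at 43.0, 15.8 and 27.5 CPM in F344 NS replicates 1 to 3 and at 34.9, 32.4 and 28.2 CPM in F344 CRS. In WKY it stood at 47.2, 42.3 and 52.3 CPM under NS and at 49.7, 44.1 and 50.9 CPM after CRS. Every WKY library but 1 thus lay above every F344 library, the exception being WKY NS replicate 2 at 42.3 against F344 NS replicate 1 at 43.0 CPM, and after CRS the strains did not overlap. The averaged strain difference was log2 0.64 (SE 0.213, 95% interval 0.20 to 1.07, 1.55-fold), with an unadjusted p of 0.00500 and an edgeR adjusted p of 0.0946, which did not pass. By treatment it was log2 0.67 under NS (edgeR adjusted p = 0.451) and 0.60 after CRS (0.450). The block and the F344 NS libraries moved the call. With the replicate number as a block, which the labels do not tie to shared animals, the averaged difference was log2 0.66 and passed (adjusted p = 0.0401). Without F344 NS replicate 1 the averaged difference was log2 0.90 and passed (adjusted p = 0.00621), as did that under NS (log2 1.19, adjusted p = 0.0497), and without F344 NS replicates 2 and 3 it was log2 0.39 (adjusted p = 0.539). Over the single leave-outs the difference stayed between log2 0.50 and 0.90. Means without and with restraint were 28.8 ± 13.6 (SD, n = 3) and 31.9 ± 3.40 CPM in F344 and 47.2 ± 4.99 and 48.2 ± 3.66 CPM in WKY, with an averaged log2 difference of 0.07 whose 95% interval ran from -0.36 to 0.50.

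**Figure D3:**
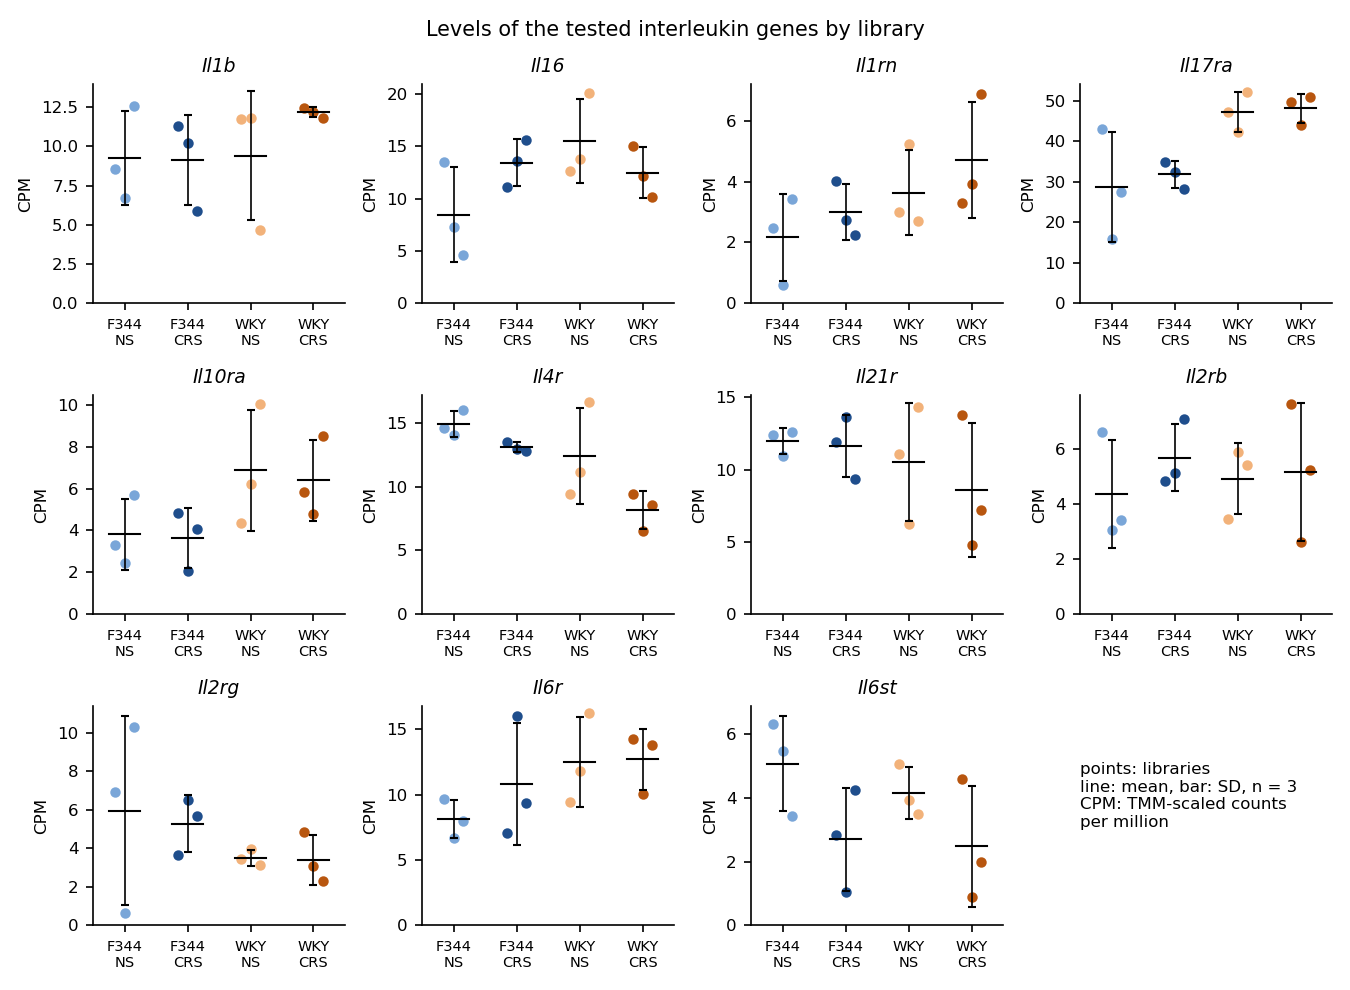
TMM-scaled CPM (y axes, linear from 0) of the 11 tested interleukin genes in each library, by strain and treatment (x axis), with the mean as a line and the SD as a bar (n = 3). Il17ra lies at 42.3 to 52.3 CPM in WKY and 15.8 to 43.0 CPM in F344, and Il4r is lowest in WKY CRS at 6.54 to 9.42 CPM.

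**Figure D4:**
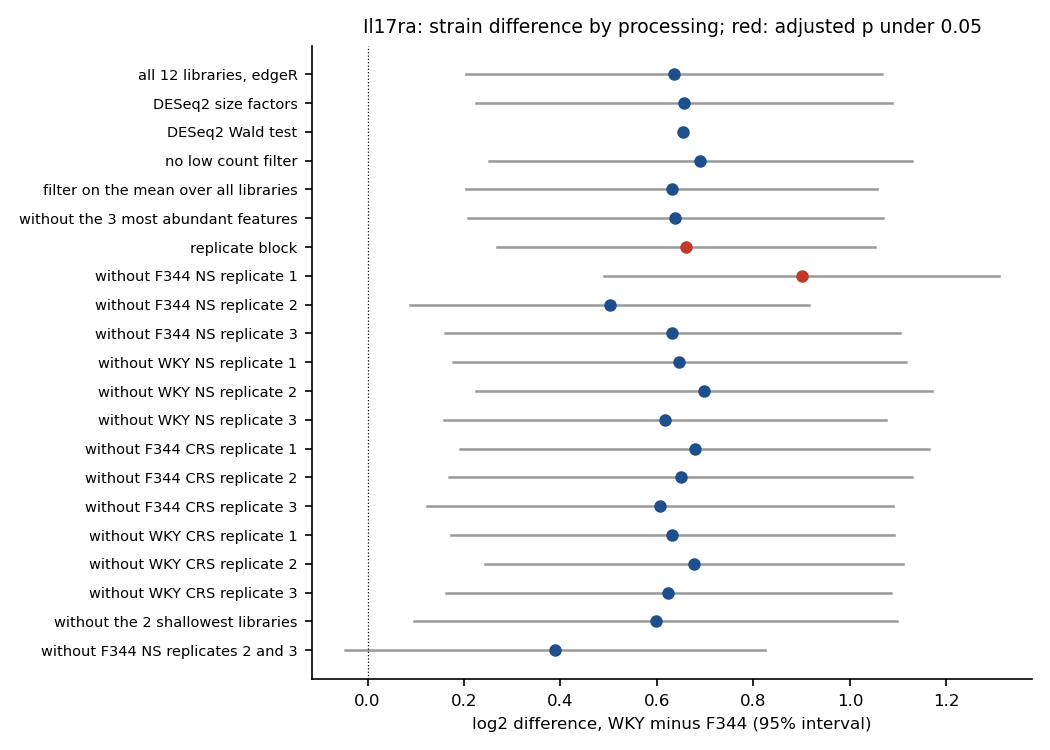
WKY minus F344 log2 difference of Il17ra averaged over treatments (x axis, 95% intervals where edgeR was used) with all libraries, under other processing and without single or paired libraries (y axis). The value lay between 0.39 and 0.90, and the red points, with the replicate number as a block and without F344 NS replicate 1, are those with an adjusted p under 0.05.

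Il10ra, the ligand-binding chain for the anti-inflammatory cytokine interleukin-10, had the largest positive strain value of the 11 but did not pass. F344 NS libraries stood at 3.31, 2.44 and 5.72 CPM and F344 CRS libraries at 4.84, 2.05 and 4.06 CPM. WKY NS libraries stood at 4.37, 6.23 and 10.1 CPM and WKY CRS libraries at 5.86, 4.80 and 8.54 CPM. The strains overlapped under both treatments, in CRS by 4.84 in F344 against 4.80 CPM in WKY. The averaged strain difference was log2 0.85 (SE 0.303, 95% interval 0.23 to 1.46, edgeR adjusted p = 0.138), and its adjusted p ranged from 0.0817 to 0.312 over the alternatives. The CRS difference averaged over strains was log2 0.03 (95% interval -0.58 to 0.64).

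Il4r, which binds interleukin-4 and interleukin-13 and drives type 2 responses, had a negative strain value that did not pass. It stood at 14.6, 14.0 and 16.0 CPM in F344 NS and 13.5, 13.0 and 12.8 CPM in F344 CRS. In WKY it stood at 9.44, 11.1 and 16.6 CPM under NS and 9.42, 6.54 and 8.54 CPM after CRS. CRS libraries lay below NS libraries without overlap in each strain, in WKY by 9.42 against 9.44 CPM, and WKY CRS lay below F344 CRS without overlap. Averaged over treatments the WKY minus F344 difference was log2 -0.46 (SE 0.225, 95% interval -0.92 to -0.01, edgeR adjusted p = 0.327), and after CRS it was log2 -0.66 (SE 0.314, adjusted p = 0.429). The CRS minus NS difference was log2 -0.17 in F344 and -0.56 in WKY (adjusted p = 0.958), and -0.37 averaged (95% interval -0.82 to 0.09, adjusted p = 0.842). Without WKY NS replicate 3, the library at 16.6 CPM, the WKY value was log2 -0.30.

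Groups without overlap were counted for all 11 genes. In F344, 1 of 11 separated CRS from NS (Il4r), where 11.9% of all tested genes did, and in WKY 2 did, Il4r lower and Il1b higher (10.1% of all genes). Between strains 0 of 11 separated under NS (14.0%) and 3 after CRS, Il17ra and Il1b higher and Il4r lower in WKY (19.6%).

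For 9 of the 11 tested genes RefSeq's promoter table of assembly GRCr8 had an entry, and Il17ra and Il2rb were unmatched. The 250 bases before the annotated start are shown for the receptors with the smallest strain p in each direction among those matched, Il10ra and Il4r, and for the inducible ligand Il1b, 5′ to 3′ on the gene's strand. They lie at chr8:54474787-54475036 (minus strand), chr1:189545525-189545774 (plus strand) and chr3:137036582-137036831 (minus strand) of GRCr8, the reference strain's genome and another build than that of the counts. Capitals mark a match to 1 of the motifs searched.
Il10ra: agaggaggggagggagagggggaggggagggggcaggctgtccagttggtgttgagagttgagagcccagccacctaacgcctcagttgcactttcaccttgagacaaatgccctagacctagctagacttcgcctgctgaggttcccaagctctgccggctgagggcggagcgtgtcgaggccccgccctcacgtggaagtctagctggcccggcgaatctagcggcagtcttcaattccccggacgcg
Il4r: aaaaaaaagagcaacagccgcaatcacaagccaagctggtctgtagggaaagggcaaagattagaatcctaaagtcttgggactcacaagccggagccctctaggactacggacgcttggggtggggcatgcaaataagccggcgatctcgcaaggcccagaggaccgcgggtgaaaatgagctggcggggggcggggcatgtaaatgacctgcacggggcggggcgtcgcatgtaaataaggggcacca
Il1b: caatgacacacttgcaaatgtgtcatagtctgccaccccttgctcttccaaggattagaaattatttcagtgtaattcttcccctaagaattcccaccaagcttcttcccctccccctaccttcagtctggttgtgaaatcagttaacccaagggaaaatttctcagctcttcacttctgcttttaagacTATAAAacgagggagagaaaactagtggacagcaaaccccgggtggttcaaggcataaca
The motifs searched on both strands were the interferon response core (a repeat of GAAA with any 2 bases between), the STAT site TTCNNNGAA, the NF-kB site (GGGA, any 4 bases, CC) and the TATA box TATAAA. Over all 33469 promoter windows of this length they occurred in 3.41%, 7.67%, 16.4% and 12.9%. The Il1b window held TATAAA, beginning 60 bases before the start, and the Il10ra and Il4r windows held none of these letters, which says nothing of other sequences or of any factor. Among the other matched genes, Il1rn held TATAAA on the opposite strand and Il6st the interferon core. The Il10ra and Il4r windows had 62.8% and 57.2% G and C with 14 and 15 CpG dinucleotides, the Il1b window 44.0% with 2, against a median of 51.2% G and C over all windows.

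No other receptor chain of the interleukin-2 family passed either. Il2rg, the common gamma chain used by receptors for interleukin-2, interleukin-4, interleukin-7 and others, stood at 6.89, 0.609 and 10.3 CPM in F344 NS and 3.63, 6.49 and 5.68 CPM in F344 CRS, against 3.45, 3.93 and 3.10 CPM in WKY NS and 4.84, 3.05 and 2.30 CPM in WKY CRS. The value of 0.609 CPM in F344 NS replicate 2 was 1 count, so that group holds both the lowest and the highest library. Averaged over treatments Il2rg differed by log2 -0.62 (SE 0.339, 95% interval -1.31 to 0.07, edgeR adjusted p = 0.410). Il21r, the interleukin-21 receptor of B, T and NK cells, stood at 12.4, 10.96 and 12.6 CPM in F344 NS, 11.9, 13.7 and 9.33 in F344 CRS, 11.1, 6.23 and 14.3 in WKY NS and 13.8, 4.80 and 7.23 in WKY CRS. It differed by log2 -0.28 between strains (95% interval -0.80 to 0.24). Its WKY libraries were spread more widely than those of F344. Il2rb, the beta chain shared by interleukin-2 and interleukin-15 receptors, lay between 2.62 and 7.64 CPM in all libraries, at log2 -0.05 between strains (95% interval -0.64 to 0.54) and 0.20 with CRS (95% interval -0.40 to 0.79). The sign of the Il2rb strain value and of the Il2rg CRS value (log2 -0.06) turned when single libraries were left out.

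The pair that receives interleukin-6 had CRS values of opposite sign, neither past the threshold. Il6st, the gp130 chain that signals for interleukin-6 and its relatives, stood at 6.34, 5.48 and 3.43 CPM in F344 NS and 2.83, 1.02 and 4.26 CPM in F344 CRS. In WKY it stood at 5.07, 3.93 and 3.48 CPM under NS and 4.58, 0.872 and 1.97 CPM after CRS. The groups overlapped in both strains, and 3 and 2 counts lay behind the lowest CRS values. Averaged over strains the CRS minus NS difference of Il6st was log2 -0.79 (SE 0.343, 95% interval -1.48 to -0.09, unadjusted p = 0.0277, edgeR adjusted p = 0.659). It was log2 -0.93 in F344 (adjusted p = 0.918) and -0.65 in WKY (0.975), and stayed negative, between -1.20 and -0.61, whichever library was left out. Il6r, the ligand-binding chain, stood at 9.65, 6.70 and 8.01 CPM in F344 NS, 7.07, 16.0 and 9.33 in F344 CRS, 9.44, 11.8 and 16.3 in WKY NS and 14.3, 10.03 and 13.8 in WKY CRS. All its groups overlapped but F344 NS and WKY CRS. Its averaged CRS difference was log2 0.20 (95% interval -0.31 to 0.70), and its strain difference log2 0.42 (95% interval -0.08 to 0.92, adjusted p = 0.452). Per count of Il6r there were 0.429 to 0.818 counts of Il6st in F344 NS, 0.0638 to 0.457 in F344 CRS, 0.214 to 0.537 in WKY NS and 0.0870 to 0.321 in WKY CRS, and the groups overlapped within each strain. Il6r overlaps She in GRCr8 and Il6st a long noncoding RNA, so reads of each may be shared with its neighbour, the strand setting of the counting being not given.

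Among ligands, Il1b, the secreted fever-inducing cytokine of myeloid cells, stood at 8.55, 6.70 and 12.6 CPM in F344 NS and 11.3, 10.2 and 5.88 CPM in F344 CRS. In WKY it stood at 11.7, 11.8 and 4.64 CPM under NS and 12.5, 12.2 and 11.8 CPM after CRS. The WKY CRS libraries lay closest together and above the rest of their strain, by 11.83 against 11.80 CPM at the nearest. The differences in Il1b were log2 0.04 for CRS in F344, 0.35 for CRS in WKY (edgeR adjusted p = 0.975) and 0.27 between strains (95% interval -0.25 to 0.79). Without WKY NS replicate 3, at 4.64 CPM, the CRS value in WKY was log2 0.05. Il1rn, the antagonist that blocks the interleukin-1 receptor, stood at 2.48, 0.609 and 3.43 CPM in F344 NS, 4.04, 2.73 and 2.23 in F344 CRS, 2.99, 5.24 and 2.71 in WKY NS and 3.31, 3.93 and 6.90 in WKY CRS. Its strain difference was log2 0.71 (SE 0.356, 95% interval -0.02 to 1.43, adjusted p = 0.351) and its CRS difference log2 0.44 (95% interval -0.28 to 1.17, adjusted p = 0.931). Per count of Il1b there were 0.0909 to 0.290 counts of Il1rn in F344 NS, 0.267 to 0.379 in F344 CRS, 0.255 to 0.583 in WKY NS and 0.265 to 0.583 in WKY CRS. All groups overlapped in this ratio. Il1rn overlaps Il36b in GRCr8, so its reads may be shared.

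Il16 had the smallest p of the 11 genes for a strain difference in the response to CRS. It stood at 13.5, 7.31 and 4.58 CPM in F344 NS and 11.1, 13.7 and 15.6 CPM in F344 CRS, and at 12.7, 13.8 and 20.1 CPM in WKY NS and 15.0, 12.2 and 10.2 CPM in WKY CRS. The CRS minus NS difference was log2 0.50 in F344 and -0.29 in WKY, and their difference log2 -0.79 (SE 0.481, 95% interval -1.77 to 0.18, edgeR adjusted p = 0.993), which did not pass. NS libraries of both strains moved the size. Without WKY NS replicate 3, at 20.1 CPM, the difference in response was log2 -0.58, the value nearest 0 over single leave-outs. Without F344 NS replicate 1 the F344 value was log2 1.12 (adjusted p = 0.274) and the difference in response log2 -1.40 (0.479). Without F344 NS replicates 2 and 3, which held the low values, they were log2 0.06 and -0.33.

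The signalling genes downstream were counted from lists taken with earlier results of these data known. Of 26 JAK-STAT genes in the tables, 15 were tested, and 1 was called for WKY against F344 averaged over treatments, where 3.74% of all tested genes were: Socs5, a suppressor of cytokine signalling, was higher in WKY. It stood at 1.93, 0.609 and 1.14 CPM in F344 NS, 1.01, 1.02 and 0.609 in F344 CRS, 3.45, 5.57 and 2.71 in WKY NS and 3.82, 1.31 and 4.27 in WKY CRS. Each WKY library lay above all F344 libraries of its treatment, although WKY CRS replicate 2 lay below F344 NS replicate 1. All F344 libraries, at 0.609 to 1.93 CPM, lay below the filter level of 3.24 CPM. Socs5 thus entered the test only through WKY libraries, where it was high. Its values in F344 NS replicates 2 and 3 were 1 count each. The strain difference of Socs5 was log2 1.66 (SE 0.442, edgeR adjusted p = 0.0263). It lay between log2 1.46 and 1.59 and did not pass without F344 NS replicate 2 (adjusted p = 0.0568), WKY NS replicate 2 (0.0911), F344 CRS replicate 3 (0.0790), WKY CRS replicate 1 (0.0662), WKY CRS replicate 3 (0.0687), or F344 NS replicates 2 and 3 together (0.131). In the other 6 comparisons 0 of the 15 were called by edgeR (0.0% to 1.29% of all genes) or DESeq2, with 0 to 3 at an unadjusted p under 0.05 (3.81% to 11% of all genes). The median of the 15 between strains was log2 0.14, with 9 positive. Stat5b, a STAT of interleukin-2 family receptors, had the smallest p among positive CRS values (log2 0.53, adjusted p = 0.697) and among negative strain values (log2 -0.41, adjusted p = 0.497). Its means were 9.94 ± 2.64 (SD, n = 3) and 8.75 ± 1.67 CPM in F344 NS and CRS and 4.72 ± 1.97 and 10.7 ± 4.03 CPM in WKY, so both averages rest on the low WKY NS group. Pias1, a STAT inhibitor, had the smallest p among negative CRS values (log2 -0.46, adjusted p = 0.929).

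Of 25 genes of interleukin-1 receptor signalling and the inflammasome, 12 were tested, and edgeR and DESeq2 called 0 in each of the 7 comparisons. At an unadjusted p under 0.05 there were 0 to 2. Over all tested genes edgeR called 0.0% to 3.74% by comparison, and 3.81% to 14.7% had an unadjusted p under 0.05. Their strain median was log2 0.06 with 6 of 12 positive, and their CRS median log2 0.03 with 7 positive. The smallest p in each direction belonged to Tab2, an adaptor of the TAK1 kinase (log2 0.61 between strains, edgeR adjusted p = 0.270), Nfkb2 (log2 -0.50, 0.618), Rela (log2 0.48 with CRS, 0.932) and Nlrc4 (log2 -0.41, 0.939). Of 10 receptor subunits and partners under other names, 3 were tested, and both tools called 0 in each comparison, with 0 at an unadjusted p under 0.05, beside the same shares of all genes. Csf2ra, the alpha chain for the growth factor GM-CSF, stood at log2 1.00 with CRS (adjusted p = 0.706) and 0.85 between strains (0.458), and Cxcr2, a receptor for interleukin-8 type chemokines, at log2 -0.21 with CRS (adjusted p = 0.972). Leaving out F344 NS replicate 1 moved several of these values, none past the threshold. Csf2ra was then log2 1.59 with CRS and 1.44 between strains, and the Nlrc4 value turned positive. Rela, at 4.14, 0.00 and 0.00 CPM in F344 NS, was then fitted at log2 3.39 (edgeR adjusted p = 0.175), against libraries at 0 and so dependent on the prior count. The Nfkb2 strain value was then log2 -0.18.

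Summed markers of the cells that carry these receptors were set beside these values. In bulk blood, fewer cells of a type and less RNA per cell cannot be told apart. The monocyte list, 10 of whose 11 genes were in the tables and all of those with counts, summed to 58.5 to 71.4 CPM in F344 NS, 80.6 to 87.7 in F344 CRS, 115 to 133 in WKY NS and 119 to 166 in WKY CRS. It was thus higher in all WKY libraries than in any F344 library, as were most WKY values of Il17ra. The neutrophil list, with 12 of 13 genes in the tables, summed to 27.5 to 50.2 and 34.5 to 50.9 CPM in F344 NS and CRS and 43.6 to 59.6 and 43.2 to 52.6 CPM in WKY, which overlapped. The T cell list, with 15 of 17 genes and none at 0, summed to 59.7 to 79.7 and 61.4 to 65.4 CPM in F344 NS and CRS and to 45.9 to 50.7 and 38.4 to 59.6 CPM in WKY. It was lower in all WKY than in all F344 libraries, by 59.6 against 59.7 CPM at the nearest. In F344 NS replicate 2, the library at 59.7, 1 count was worth 0.609 CPM. Il4r was also lower in WKY after CRS but overlapped under NS. The averaged strain values of Il2rg, Il21r and Il2rb were log2 -0.62, -0.28 and -0.05, none called. Within WKY the T cell sums of CRS and NS libraries overlapped. Of 10 tested T cell genes 9 had negative averaged strain values (median log2 -0.81, 1 called), against 49.1% positive values, a median of -0.01 and 3.74% called over all tested genes, and of 4 tested monocyte genes 3 had positive ones (median log2 0.76, 2 called). B cell genes (12 of 13 in the tables) summed to 21.7 to 37.8 and 30.7 to 34.7 CPM in F344 NS and CRS. In WKY they summed to 30.6 to 37.4 CPM under NS and 22.3 to 29.7 CPM after CRS. WKY CRS thus lay below WKY NS, by 29.7 against 30.6 CPM at the nearest, and below F344 CRS without overlap, while the F344 groups overlapped. Of single tested genes, 10.1% separated CRS from NS in WKY and 19.6% separated the strains after CRS, in either direction. Il4r also separated in these 2 comparisons, while Il21r overlapped in both. All 7 tested B cell genes had negative CRS values in WKY (0 called), where 51.2% of all tested genes had positive ones. In F344, 4 of the 7 were positive. NK cell genes (10 of 11) lay at 7.07 to 18.3 CPM in F344 and 9.60 to 19.9 CPM in WKY. The eosinophil and basophil lists were near 0 in most libraries, at 0.00 to 6.54 and 0.00 to 3.93 CPM, with the basophil gene Cpa3 at 0. Platelet genes (11 of 15) summed to 44.6 to 71.4, 86.7 to 98.7, 58.8 to 121 and 105 to 177 CPM in F344 NS, F344 CRS, WKY NS and WKY CRS, with Gp1bb at 0 and 3 of 8 tested genes called between strains, also against 3.74%. The F344 groups did not overlap in this sum and the WKY groups did. All 8 tested platelet genes had positive CRS values averaged over strains (median log2 0.56, 0 called), as had 50.3% of all tested genes. Red cell genes (11 of 15) summed to 21181 to 36367 CPM in F344 NS, 26286 to 42857 in F344 CRS, 21028 to 26979 in WKY NS and 35827 to 39002 in WKY CRS, without overlap between the WKY groups. Of 10 tested red cell genes 9 had negative averaged strain values (median log2 -0.07, 1 called). The part of these cell types in the interleukin values was not tested.

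**Figure D5:**
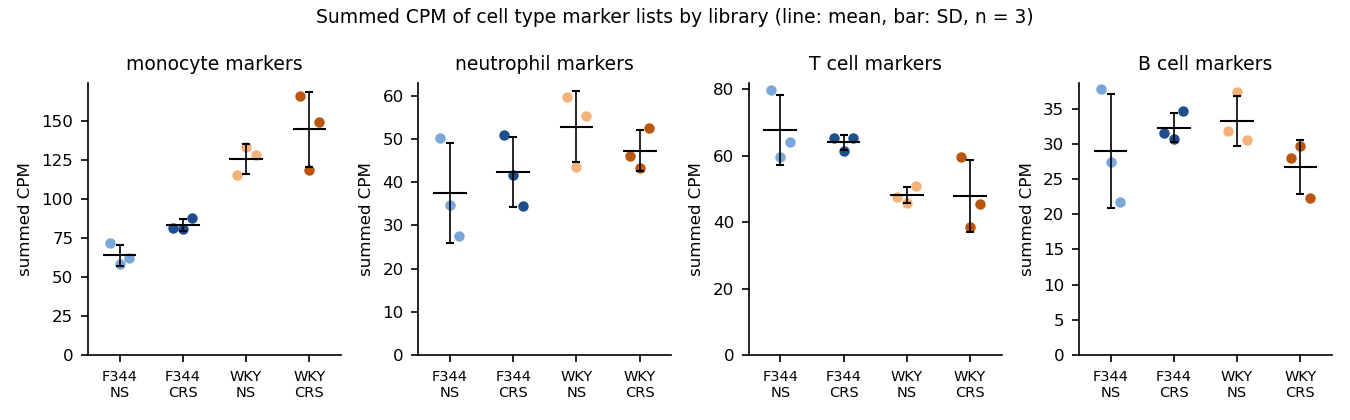
Summed CPM (y axes, linear from 0) of 4 cell type marker lists in each library, by strain and treatment (x axis), with mean and SD (n = 3). Monocyte sums are 115 to 166 CPM in WKY and 58.5 to 87.7 CPM in F344, and T cell sums are 38.4 to 59.6 CPM in WKY and 59.7 to 79.7 CPM in F344.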

How the data were processed

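Whole blood gave 12 libraries, 3 per group of strain and treatment by their titles. Blood was collected into PAXgene tubes and sequenced with Ion Proton libraries, per the labels' protocols. The authors deposited whole-number read counts per gene, not normalised, for 17337 genes per library. Build rn6 and the tools TopHat2 2.1.0, Cufflinks 2.2.1 and cutadapt 1.14 come from the submitters' processing notes, with no role stated. How reads were counted, on which annotation and with what strand setting, is not given in the sources used here. The 5 rows that name no gene, 80.9% to 86.6% of counts, stayed out of library sizes and tests.

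The test was edgeR 4.0.16 under R 4.3.3 (glmQLFit, glmQLFTest, TMM) after filterByExpr with a minimum count of 10, which came to 3.24 CPM in at least 3 libraries, without a replicate block. SE and 95% intervals were back-calculated from each p-value. Alternatives were DESeq2 1.42.0, its size factors, other filters, a replicate block and left-out libraries. The step was tested on simulated data. The interleukin genes, lists and rules were chosen with earlier results of these data known. All tested members are named, with values per library for called members, the lowest p per direction and comparison, the 6 with the highest mean CPM and Il1b, and pathway genes if called or with the smallest p in each direction in the averaged comparisons. From 1 list, 1 gene is not reported here. RefSeq of assembly GRCr8 matched 73 of 73 symbols and served only for overlaps and promoter sequences. Libraries of a group differed by more than sampling noise. Intervals and limits cover counting error or library spread only.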

Additional observations from a re-analysis of the deposited data

How the results depend on the processing

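The count of called interleukin genes was 0 in 7 comparisons and stayed 0 in all alternatives but 3, each with Il17ra higher in WKY: 1 with the replicate block in the strain comparison averaged over treatments (log2 0.66, edgeR adjusted p = 0.0401), and 1 there and 1 under NS without F344 NS replicate 1. So the range over single leave-outs was 0 to 1 in those 2 comparisons. Replicate numbers were not taken to pair the libraries, since the labels do not tie them to animals. The correlations do not settle this. Of same-number pairs, 4 of 18 correlated above 0.1 (r from -0.0901 to 0.204, against -0.170 to 0.134 for other numbers). Of pairs with other numbers, only WKY NS replicate 1 with WKY CRS replicate 3 (0.114) and F344 CRS replicate 3 with WKY CRS replicate 1 (0.134) did. By library, 9 of 12 correlated best with a library of their own number. A pair counts for both libraries when each is the other's best, and the share expected by chance was not computed. For WKY NS replicate 3 the margin was r 0.0845 against 0.0840. Whether same-numbered libraries share a source of spread was not tested. The block gave 2 called genes for CRS averaged over strains against 1, and 120 against 104 for strain averaged over treatments.

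Counts over all genes moved more. Over single leave-outs they ran from 0 to 5 for CRS in F344 (0 with all libraries), 0 to 2 in WKY (0), 0 to 5 averaged (1), 5 to 45 for strain under NS (19), 18 to 46 after CRS (36), 59 to 130 averaged (104) and 0 to 2 for the difference in response (0). Without the low count filter they were 6 for CRS averaged, 5 in F344, 8 in WKY, and 3 for the response difference, whose median over all genes then shifted to log2 -0.24. DESeq2 called 3 for CRS averaged. Fitting the compared groups alone gave 9 for strain under NS. Without the 2 shallowest libraries (F344 NS and WKY NS replicate 3) the counts were 0 for CRS averaged, 10 for strain under NS and 64 averaged. Without F344 NS replicates 2 and 3, an alternative chosen after seeing the data, 1 library is left in that group and takes its spread from the other groups. The counts then were 0, 5 and 43, and 1 for the response difference.

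Small uncalled values changed sign. For CRS averaged over strains Il10ra was log2 -0.023 with the replicate block and -0.084 to 0.22 over leave-outs, Il17ra -0.054 to 0.34 over leave-outs and -0.16 without F344 NS replicates 2 and 3, Il16 -0.11 without these, Il21r 0.037 without the filter and 0.0048 without the 2 shallowest libraries, and Il2rg 0.11 and 0.081 under the same settings and -0.29 to 0.14 over leave-outs. The Il1b difference in response was log2 -0.036 without the filter, -0.18 without the 2 shallowest libraries and -0.0040 to 0.51 over leave-outs. Strain values of Il2rb ran from -0.25 to 0.26 and of Il6st from -0.64 to 0.010 over leave-outs. Over leave-outs Nlrc4 ran from -0.54 to 0.33 with CRS and Cxcr2 from -0.39 to 0.037. The cause of these shifts was not tested. Socs5 lay between log2 1.46 and 2.06 and lost its call in 6 alternatives. Depth limits all of this: 1 count was worth 0.202 to 1.14 CPM.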
